A study of Mus musculus with 11 samples.

Results

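The genes described here encode the proteins of the cytosolic ribosome, measured in 11 lymphomas of a mouse model. A name pattern on the array's gene names (Rpl or Rps with a number, the stalk genes Rplp0, Rplp1 and Rplp2, and Rpsa, without the S6 kinases and names ending in an l) found 80 genes, read by 179 probes, among 20204 gene names tested. Of the 80, 76 are core ribosomal protein genes: 30 of the small subunit, 43 of the large subunit and 3 of the stalk. The other 4 matched only by name. Rps19bp1 encodes a protein that binds Rps19, Rpl7l1 and Rpl22l1 are paralogues of Rpl7 and Rpl22, and Rps4y2 is listed under a non-coding accession. All 80 passed the filter on dim probes, and 79 were well above background on all 11 arrays, Rps4y2 on 7.

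All tumours came from lymph nodes of Black 6 mice of the genotype c-myc-3'RR/p53+/-: a c-myc transgene under the 3' enhancer region of the heavy chain immunoglobulin gene, which is active in B cells, with 1 intact copy of p53. The labels call all of them lymphomas of mature B cells. They divide them by origin into plasma cell lymphoma (PCL, 4 tumours), mantle cell lymphoma (MCL, 3 tumours) and Burkitt lymphoma (BL, 4 tumours), with no normal tissue and no tumour without the transgene. The design text numbers the mantle cell tumours up to 4 but counts 3, the number analysed here. Nothing in the labels assigns each tumour to a mouse of its own. The p-values therefore measure only how these samples spread, and that spread may be technical. Tumours are named by type and array position, such as PCL1. Every type was hybridised on a separate slide, so type and slide cannot be told apart.

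Ribosomal proteins assemble with ribosomal RNA in fixed proportions into a small subunit, which decodes messenger RNA, and a large subunit, which forms peptide bonds. Their messenger RNAs begin with a tract of pyrimidines, the TOP motif, through which growth signals control their translation together. Myc is known to raise ribosome production, and free Rpl5 and Rpl11, carried with the 5S ribosomal RNA, bind Mdm2, the inhibitor of p53, when assembly fails.

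Values are log2 signals relative to the 75th percentile of the same array, from the brightest probe of each gene. Of 43020 spots per array, 55.5% to 62.8% were well above background and 0 were saturated. The number of arrays limits the precision. The 8 B cell markers were well above background on all arrays, as were 5 of 6 plasma cell markers. After subtraction of each gene's mean over all tumours, the medians of the plasma cell markers lay between 0.60 and 0.86 in PCL, between -0.98 and 0.52 in MCL and between -1.07 and -0.05 in BL.

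Features of the sequences at the start sites, which the choice by name did not use, were counted in these genes and in all genes. Promoter sequences of RefSeq (build GRCm38.p6, 250 bases before to 50 after each annotated start) were found for 55 of the 76 core genes and 27025 genes in all, and a gene counted if any of its starts held the motif. The motif CTTCCG on either strand, the core recognised by ETS factors, was in the promoters of 39 of the 55 genes (70.9%) against 18.8% of all genes. A start on C within a run of at least 5 pyrimidines was annotated for 13 of 55 (23.6%) against 3.01% of all. The E-box CACGTG, which Myc binds, was in 6 of 55 (10.9%) against 8.09%. TATAAA was in 6 of 55 (10.9%) against 15.7%, and AAGATGG in 9 of 55 (16.4%) against 7.28%. These matches describe letters in a window and were not tied to any factor or to the signals. The 70 bases from 60 before to 10 after a start are printed for 8 genes that the results turn on or that are described for their roles, with CTTCCG or its reverse complement in capitals. Those on the plus strand lie at chr2:180257319-180257388 (Rps21), chr11:98026650-98026719 (Rpl19), chr11:68901506-68901575 (Rpl26), chr7:24884532-24884601 (Rps19), chr14:24490618-24490687 (Rps24) and chr5:107900468-107900537 (Rpl5). Those on the minus strand lie at chr4:86857358-86857427 (Rps6) and chr4:136053384-136053453 (Rpl11).
Rps21: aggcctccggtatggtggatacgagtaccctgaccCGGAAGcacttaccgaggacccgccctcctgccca
Rps6: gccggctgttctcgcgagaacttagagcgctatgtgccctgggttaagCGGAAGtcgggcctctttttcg
Rpl19: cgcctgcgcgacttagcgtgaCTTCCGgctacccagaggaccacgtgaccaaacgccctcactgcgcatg
Rpl26: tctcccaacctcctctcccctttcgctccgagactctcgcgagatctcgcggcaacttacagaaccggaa
Rps19: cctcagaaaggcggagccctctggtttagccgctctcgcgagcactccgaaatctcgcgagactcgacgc
Rps24: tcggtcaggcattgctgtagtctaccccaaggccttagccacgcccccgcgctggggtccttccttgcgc
Rpl5: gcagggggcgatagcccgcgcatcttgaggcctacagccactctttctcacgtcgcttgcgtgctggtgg
Rpl11: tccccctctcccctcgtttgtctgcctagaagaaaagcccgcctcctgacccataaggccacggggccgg
The annotated transcript of Rps6 begins with a run of 9 pyrimidines, that of Rps24 with 6 and that of Rps21 with 5. The starts shown for Rpl19, Rpl26, Rps19, Rpl5 and Rpl11 begin with a purine. Where a gene has several annotated starts, the printed one was chosen by the motif first and then by the longest pyrimidine run. The printed starts therefore favour both features. Of the 8 windows, those of Rps21, Rps6 and Rpl19 hold the motif and the other 5 hold neither form.

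The question the series sets is how the 3 lymphoma types differ. Of the ribosomal protein genes, 1 of 80 differed among the types, Rps21, where 8.35% of all genes tested did (limma's moderated F test, Benjamini-Hochberg adjusted p under 0.05). Their probes give bright spots, and of 936 other genes among the brightest 5%, 1.39% were called. The SD of a gene within a type had a median of 0.21 over the 80 members, 0.21 over these bright genes and 0.42 over all genes. The standard error of a member's difference between PCL and MCL had a median of 0.19 log2 units. In PCL against MCL, the 95% interval of the difference lay within 2-fold for 74 of 80 members. It did so for 808 of the 936 bright genes and 7938 of all 20204 genes. In PCL against BL the counts were 76 members, 815 bright genes and 10055 of all genes. In MCL against BL they were 77, 829 and 8307.

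Rps21, a small subunit protein gene, was the member that differed. Its log2 signals were 6.76, 7.35 and 6.80 in MCL1 to MCL3, 6.17, 5.93, 6.26 and 6.10 in PCL1 to PCL4, and 5.71, 5.87, 6.14 and 5.96 in BL1 to BL4. All MCL tumours lay above all others, and PCL and BL overlapped. The means were 6.97 ± 0.33 for MCL (SD, n = 3), 6.12 ± 0.14 for PCL (SD, n = 4) and 5.92 ± 0.18 for BL (SD, n = 4). Rps21 was 1.81-fold lower in PCL than in MCL (log2 difference -0.85 ± 0.19, SE, limma, adjusted p = 0.0314) and 2.07-fold higher in MCL than in BL (1.05, adjusted p = 0.0117). Between PCL and BL it differed by 0.20 (adjusted p = 0.611). Rps21 was the only core gene with every MCL tumour above the other 8, which held for 8.57% of all genes.

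The PCL to MCL call of Rps21 was lost with normexp background correction (-0.94, adjusted p = 0.0743), without a filter on dim probes (-0.85, adjusted p = 0.0645) and in a fit of the PCL and MCL arrays alone (-0.85, adjusted p = 0.0679). It was also lost without PCL2 (-0.79), without PCL3 (-0.90), without PCL4 (-0.85), without MCL2 (-0.66) or without MCL3 (-0.94). The MCL to BL call was lost with normexp (1.15, adjusted p = 0.0661), with arrays centred on the median (0.80, adjusted p = 0.0882) and in a fit of the MCL and BL arrays alone (1.05, adjusted p = 0.0701). One probe reads the gene, at mm9 chr2:179993084-179993143. Its bases 24 to 53, with the polyadenylation hexamer AATAAA in capitals, show that it sits at the end of the transcript.
Rps21 probe: gaatttgttacaAATAAAagttttaagtac
AATAAA was in the brightest probe of 22 of 76 core genes (28.9%) and of 14.5% of all genes.

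**Figure D1:**
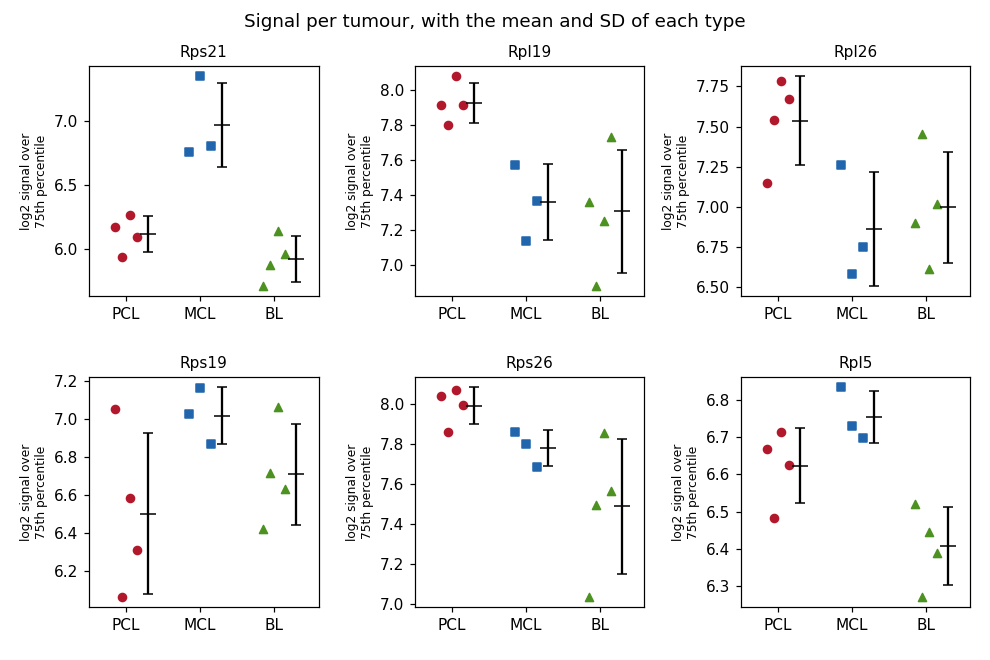
Log2 signal relative to the array's 75th percentile (vertical axis) of 6 genes in each tumour, by type (horizontal axis), where each point is a tumour and the bar is the mean with its SD. The MCL tumours lie above the rest for Rps21 (6.76 to 7.35), the PCL tumours lie highest for Rpl19, and PCL1 stands above PCL2 to PCL4 for Rps19.

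In PCL against MCL, 1 member was called, Rps21, lower in PCL, where 6.85% of all genes were called and 4.74% were called lower. The members' median difference was 0.05 against -0.03 over all genes. A higher mean in PCL was found for 50 of 80 (62.5%), against 48.1% of all genes. The 936 other bright genes had a median of 0.06, and 61.1% of them were higher in PCL. Of these bright genes, 1.28% were called, 9.40% had an unadjusted p under 0.05 and 138 did not overlap between the types. The small subunit genes had a median of 0.02 and the large subunit genes of 0.09. An unadjusted p under 0.05 was found for 3 of 80 (3.75%), against 24.3% of all genes, and the types did not overlap in 6 members, against 22.8% of all genes.

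Among the core genes, the largest differences between PCL and MCL after Rps21 were those of Rpl26 and Rpl19, large subunit genes of chromosome 11, and of Rps19, a small subunit gene of chromosome 7. Rpl26, whose protein is known also to bind p53 messenger RNA, had signals of 7.15, 7.54, 7.78 and 7.67 in PCL, 7.26, 6.58 and 6.75 in MCL, and 6.90, 7.45, 6.62 and 7.02 in BL. PCL1 lay below MCL1 and BL2, while PCL2 to PCL4 lay above every other tumour. The difference between PCL and MCL was 0.67 ± 0.25 (SE, limma, adjusted p = 0.141).

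Rpl19 had signals of 7.92, 7.80, 8.08 and 7.92 in PCL, 7.57, 7.14 and 7.37 in MCL, and 7.36, 6.88, 7.26 and 7.74 in BL. All PCL tumours lay above all others, and neither difference passed the adjusted threshold: 0.57 against MCL (adjusted p = 0.135) and 0.62 against BL (adjusted p = 0.144). With array quality weights, Rpl26 was called against MCL (0.80, adjusted p = 0.0251) and Rpl19 against BL (0.63, adjusted p = 0.0423).

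The macrophage markers, like Rpl26 but not Rpl19, separated PCL1 from the other PCL tumours. Their median was -0.96 in PCL1 and 2.74, 1.75 and 2.02 in PCL2 to PCL4. In MCL it ran from -1.85 to 0.25 and in BL from -0.68 to -0.03. Of 14 named markers 11 were measured, 11 of 11 had a higher mean in PCL than in MCL, and 7 were well above background on all arrays. The granulocyte markers were also lower in PCL1 (-1.72) than in PCL2 to PCL4 (3.25, 0.13 and 1.11), and ran from -2.20 to 0.39 in MCL and from -2.01 to 1.83 in BL. Among the PCL tumours, PCL1 was also lowest for the erythroid markers (-1.31, next -0.85 in PCL4) and the endothelial and stromal markers (-0.33, next -0.24 in PCL2). Outside PCL, MCL1 was the highest of its type in both Rpl26 (7.26) and the macrophage median (0.25). BL2 was the highest of its type in Rpl26 (7.45), with a macrophage median of -0.52. The part of any of these cell types in the signals of Rpl26 and Rpl19 was not tested. In such bulk samples, fewer cells of a type and less RNA per cell cannot be told apart.

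Rps19, which is mutated in Diamond-Blackfan anaemia, had signals of 7.05, 6.07, 6.58 and 6.31 in PCL, 7.03, 7.16 and 6.87 in MCL, and 6.42, 6.72, 7.06 and 6.63 in BL. PCL1 lay within the MCL range and PCL2 to PCL4 below it. The difference between PCL and MCL was -0.51 ± 0.25 (SE, limma, adjusted p = 0.237). The remaining members at the lower end were Rps3 (-0.43, adjusted p = 0.267), a protein of the messenger RNA entry site, Rpl27a (-0.35, adjusted p = 0.356) and Rpl13a (-0.31, adjusted p = 0.409). At the upper end were Rpl27 (0.40, adjusted p = 0.356) and Rpl23a (0.33, adjusted p = 0.326).

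**Figure D2:**
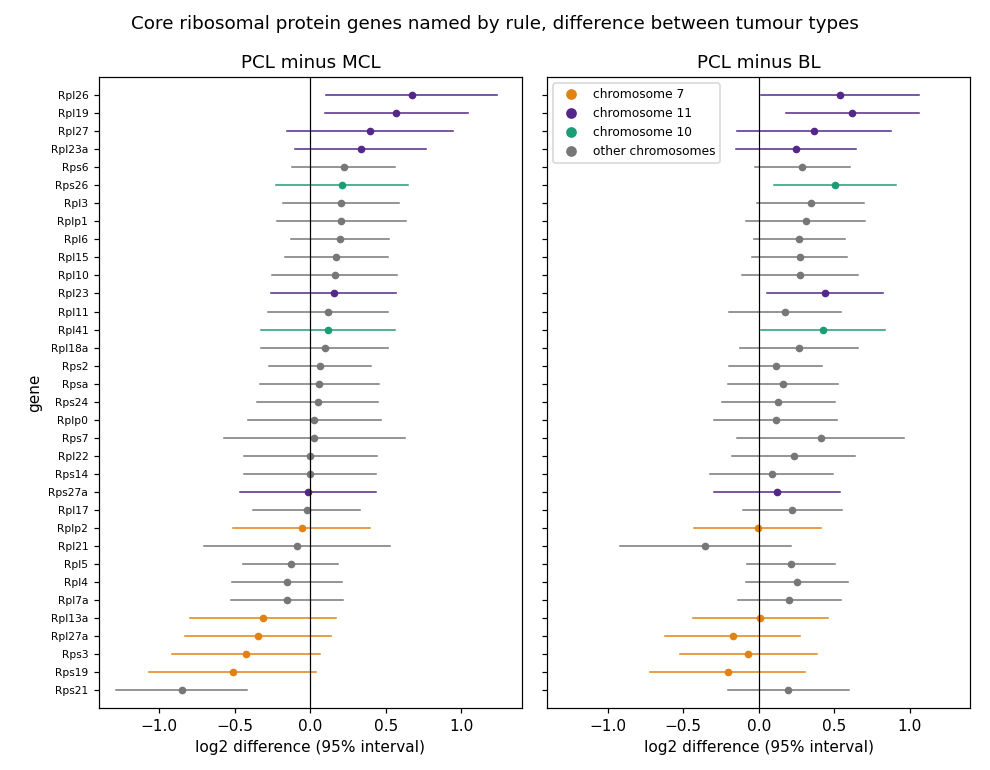
Log2 differences (horizontal axes) of the core genes named by rule (vertical axis) between PCL and MCL and between PCL and BL, with 95% intervals from the limma fit. Rps21 and the chromosome 7 genes Rps19, Rps3, Rpl27a and Rpl13a are at the lower end between PCL and MCL, and Rpl26 and Rpl19 of chromosome 11 are at the upper end.

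In PCL against BL, 0 of 80 members were called by limma at an adjusted p under 0.05, where 0.653% of all genes were, and 1 was with array quality weights. An unadjusted p under 0.05 was found for 7 of 80 (8.75%), against 17.5% of all genes. The median difference of the members was 0.19 against 0.09 over all genes. A higher mean in PCL was found for 67 of 80 (83.8%), against 58.7% of all genes. The 936 other bright genes had a median of 0.17, and 75% of them were higher in PCL. Of these bright genes, 0.107% were called, 13.7% had an unadjusted p under 0.05 and 99 did not overlap between the types. The types did not overlap in 6 members, against 11% of all genes. The largest differences were those of Rpl19 (0.62, given above) and Rpl26 (0.54, limma, adjusted p = 0.272), followed by Rps26. Rps26, a small subunit protein brought to the ribosome by the chaperone Tsr2, had signals of 8.04, 7.86, 8.07 and 8.00 in PCL and of 7.03, 7.49, 7.85 and 7.57 in BL. BL1 was lowest and BL3 lay just under the lowest PCL tumour, and the difference was 0.51 ± 0.18 (SE, limma, adjusted p = 0.191). Rpl23, next in size, differed by 0.44 (adjusted p = 0.226), and Rpl41, the smallest ribosomal protein, by 0.42 (adjusted p = 0.271). At the other end, Rpl21 differed by -0.35 (adjusted p = 0.512), with dim signals on all tumours, from -0.94 in PCL1 to 0.06 in BL2.

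In MCL against BL, 1 of 80 members was called, Rps21, higher in MCL, where 6.60% of all genes were called and 6.40% were called higher. The members' median difference was 0.13 against 0.06 over all genes. A higher mean in MCL was found for 68 of 80 (85%), against 54.2% of all genes. The 936 other bright genes had a median of 0.09, and 65.5% of them were higher in MCL. An unadjusted p under 0.05 was found for 3 members, and the types did not overlap in 4: Rps21, Rpl4, Rpl5 and Rps3. Over all genes, 18.4% had such a p and 17.6% did not overlap. Rpl4 differed by 0.41 (limma, adjusted p = 0.214) and Rps3 by 0.36 (adjusted p = 0.451).

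Among members named for their roles, Rpl5 and Rpl11 form the 5S particle that binds Mdm2. Rpl5 had signals of 6.67, 6.48, 6.71 and 6.62 in PCL, 6.83, 6.73 and 6.70 in MCL, and 6.52, 6.27, 6.44 and 6.39 in BL. MCL lay above BL without overlap, and PCL overlapped both. Its difference between MCL and BL was 0.35 (95% interval 0.03 to 0.66, limma, adjusted p = 0.218), and its SD within types, 0.10, was the lowest of all members. Rpl11 differed by 0.12 between PCL and MCL and by 0.06 between MCL and BL (adjusted p = 0.732 and 0.91). Of the 6 genes of the Mdm2 axis (Mdm2, Mdm4, Trp53, Cdkn1a, Cdkn2a and Bbc3), 0 were called in any comparison, where 6.85%, 0.653% and 6.60% of all genes were called in PCL against MCL, PCL against BL and MCL against BL. Between PCL and MCL the differences were 1.24 for Cdkn1a, a cell cycle inhibitor gene induced by p53 (adjusted p = 0.233), 1.24 for Trp53 (adjusted p = 0.279), 0.66 for Mdm4 (adjusted p = 0.186), 0.20 for Mdm2 (adjusted p = 0.689), -0.10 for Bbc3 (adjusted p = 0.841) and -0.36 for Cdkn2a (adjusted p = 0.38). Of the 6, 1 had an unadjusted p under 0.05. Those of Myc differed by -0.16 between PCL and MCL and by 0.41 between MCL and BL (adjusted p = 0.813 and 0.59).

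The stalk proteins Rplp0, Rplp1 and Rplp2 recruit elongation factors. Rplp0 had signals of 8.59, 8.22, 8.63 and 8.24 in PCL, 8.27, 8.71 and 8.20 in MCL, and 8.34, 8.23, 8.55 and 8.11 in BL. The types overlapped, and the 3 stalk genes differed by -0.06 to 0.20 between PCL and MCL and by 0.05 to 0.11 between MCL and BL. Rps6, the substrate of S6 kinase, differed by 0.22 between PCL and MCL (adjusted p = 0.408), with tumours from 7.63 to 7.88 in PCL and from 7.40 to 7.60 in MCL, which did not overlap. Differences between PCL and MCL were 0.20 for Rpl3, a protein near the peptidyl transferase centre (adjusted p = 0.506), and 0.16 for Rpl10, which joins the large subunit late (adjusted p = 0.642). They were 0.06 for Rpsa, also known as a laminin receptor (adjusted p = 0.871), 0.00 for Rps14, lost in the human 5q- syndrome (adjusted p = 0.997), and -0.02 for Rps27a, made as a fusion with ubiquitin (adjusted p = 0.966).

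The members that varied least within types were, after Rpl5, Rpl6 (SD 0.11), Rps2 (0.12), Rps6 (0.13) and Rpl15 (0.13). Those that varied most were Rps4y2 (2.16), Rpl22l1 (0.62), Rpl21 (0.36), Rps7 (0.35) and Rpl26 (0.32). Of the matches that are not core genes, Rps4y2 had signals from -8.18 in MCL3 to -0.32 in BL2, near or below the limit of detection, and differed by 2.09 between PCL and MCL (SE 1.48, limma, adjusted p = 0.417). Rpl22l1, a paralogue that can stand in for Rpl22, ran from 4.72 to 5.63 in PCL, from 4.23 to 5.37 in MCL and from 3.88 to 5.65 in BL. Rpl7l1 and Rps19bp1 differed by less than 0.20 in all 3 comparisons. Of the paralogues outside the name rule, Rps27l, Rpl36al and Rpl3l were measured and 0 of 3 were called, against 8.35% of all genes in the F test. Rps27l, a p53 target, differed by 0.49 between PCL and MCL (adjusted p = 0.258).

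The core genes were high or low together in single tumours, and the types overlapped. From each gene its mean over all tumours was subtracted. The median of the 76 was then 0.20, -0.09, 0.26 and -0.01 in PCL1 to PCL4, 0.02, 0.24 and -0.11 in MCL1 to MCL3, and -0.15, -0.17, 0.12 and -0.18 in BL1 to BL4. PCL3, MCL2, PCL1 and BL3 were high, and each type held high and low tumours. In PCL1, 73 of the 76 lay above their own means and in BL2, 5 did. The type means of this median were 0.09 ± 0.17 for PCL (SD, n = 4), 0.05 ± 0.18 for MCL (SD, n = 3) and -0.09 ± 0.14 for BL (SD, n = 4). After the type means were removed, pairs of core genes correlated at a mean of 0.59 over the 11 tumours, and the bright other genes at 0.22.

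This shared level depended on the scaling of the arrays and moved with features of the RNA. With quantile normalization the median of the core genes ran only from -0.03 to 0.07 and the mean pair correlation was 0.07. In the authors' value table the median ran from -0.07 to 0.04 and the correlation was 0.05. Quantile normalization gives all arrays the same distribution, and 75 of the 76 core genes are among the brightest 5%, so their median can move little under it. The correlation of the bright other genes fell as well, to 0.01 in both settings. The authors' table keeps the rank order of the signals, with array medians of 7.25 to 7.26, so it is not a separate check. Centring each array on its median turned the core genes' median difference from 0.20 to -0.07 between PCL and BL and from 0.13 to -0.12 between MCL and BL. The same step moved the median of all genes from 0.09 to -0.17 and from 0.06 to -0.19. Normexp correction moved the median of all genes from -0.03 to 0.16 between PCL and MCL. Of the 5 tumours with an RNA integrity number under 10, 4 had a core median above 0, and of the 6 with 10, 1 did. It was also above 0 in 4 of the 5 arrays whose 75th percentile was below the median array and in 1 of the 5 above it. The 4 tumours are PCL1, PCL3, MCL2 and BL3 in both counts. Each value has that percentile subtracted, so the core median and the percentile are not independent. Before the subtraction, the log2 core median was 18.21 in PCL1, 18.04 in PCL3, 17.84 in MCL2 and 18.04 in BL3. In the other tumours it ran from 17.70 in BL1 to 18.27 in PCL2. The part of RNA integrity and of array brightness in the shared level was not tested.

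**Figure D3:**
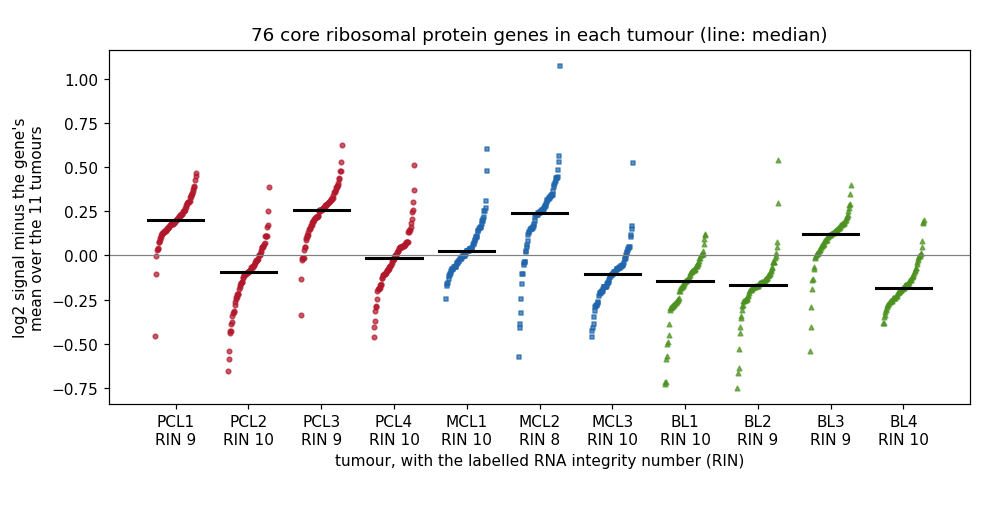
Log2 signal of each of the 76 core genes minus its mean over the 11 tumours (vertical axis) in each tumour (horizontal axis, with the RNA integrity number of the labels), points sorted within a tumour and a line at the median. The medians run from -0.18 in BL4 to 0.26 in PCL3, and the highest point, in MCL2, is Rps21.

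Against this shared level, most core genes of some chromosomes departed in the same direction in single tumours. On each array, the median of the core genes of a chromosome was set against that of the other core genes, which cancels any constant scaling. The 14 genes of chromosome 7 lay at -0.32 in PCL2, -0.18 in PCL3 and -0.22 in PCL4. They lay at 0.06 in PCL1, at 0.12, 0.05 and 0.13 in the MCL tumours and at 0.07 to 0.08 in the BL tumours. PCL2 to PCL4 were thus low and PCL1 was not. Among these genes are Rpl13a, Rpl27a, Rplp2, Rps3, Rps9 and Rps19. Of the 14, 13 had a lower mean in PCL than in MCL, Rps9 being the exception, against 16 of the 62 core genes elsewhere, and none of the 14 was called. The 741 other chromosome 7 genes in the brighter part of the array (above the median gene) lay at -0.51, -0.20 and -0.34 in PCL2 to PCL4 and at 0.03 in PCL1.

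The 7 genes of chromosome 11 are Rpl19, Rpl23, Rpl23a, Rpl26, Rpl27, Rpl38 and Rps27a, on the chromosome that also carries Trp53. They lay at -0.57 in MCL2 and -0.32 in BL3, and at 0.21, 0.15 and 0.17 in PCL2 to PCL4 and 0.20 in BL4. MCL2 and BL3 were low, although both were high in the level shared by all core genes. The 7 genes split in BL2, at a median of -0.02. Rpl27 lay at -0.57 there, Rpl19 at -0.49 and Rpl23 at -0.46, but Rpl26 at 0.47 and Rpl23a at 0.26. The 823 other chromosome 11 genes lay at -0.37 in both MCL2 and BL3, at 0.17, 0.18 and 0.18 in PCL2 to PCL4 and at 0.25 in BL4. The median difference of the 7 genes was 0.33 between PCL and MCL and 0.37 between PCL and BL. Rps27a did not take part in MCL2, at 0.10 above the other core genes, while Rpl26 lay at -0.80 and Rpl19 at -0.64. In BL3 Rps27a lay at -0.03.

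The 4 genes of chromosome 10, Rpl41, Rps12, Rps15 and Rps26, had their lowest signals in BL1. They lay at -0.57 there, and at -0.09 or above in every other tumour. The 450 other chromosome 10 genes lay at -0.64 in BL1. Rpl32, the single core gene of chromosome 6, lay at -0.22, -0.26 and -0.22 in PCL2 to PCL4 and at 0.04 in PCL1.

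Over the 11 chromosomes with at least 3 core genes and the 11 tumours, the shift of the core genes followed that of the other genes of the chromosome with a Pearson r of 0.77 and a Spearman rho of 0.59. This is a description over 121 points that share arrays and chromosomes. The core genes shifted by more than 0.15, a limit chosen after the values were seen, in 13 points. In 12 of these the other genes shifted the same way by at least 0.137, and in the remaining 1, chromosome X in BL4, they lay at 0.00 and the core genes at -0.17. Some shifts of the other genes had no such counterpart in the core genes. On chromosome 3 the other genes lay at 0.32 in PCL1 and 0.29 in BL4 and the 3 core genes at 0.03 and -0.01. On chromosome 15 in MCL3 the values were 0.18 and 0.00, and on chromosome 5 in BL1 they were 0.42 and 0.13. DNA copy number was not measured in these data, and its part in the shifts was not tested. Chromosomes are those of the brightest probes in mm9. For 4 of 75 core genes with a RefSeq entry (Rpl31, Rps27, Rps29 and Rps4x) the RefSeq gene lies elsewhere, and none of these probes or genes is on chromosome 7, 10 or 11. Rps4x was counted on chromosome 3 but lies on X in RefSeq, and Rps27 was counted on chromosome 9 but lies on chromosome 3. The values given for chromosomes 3 and X, with few core genes each, therefore depend on this placement and were not recomputed. Processed copies of ribosomal protein genes are common in the mouse genome, and a probe can read them along with the gene.

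**Figure D4:**
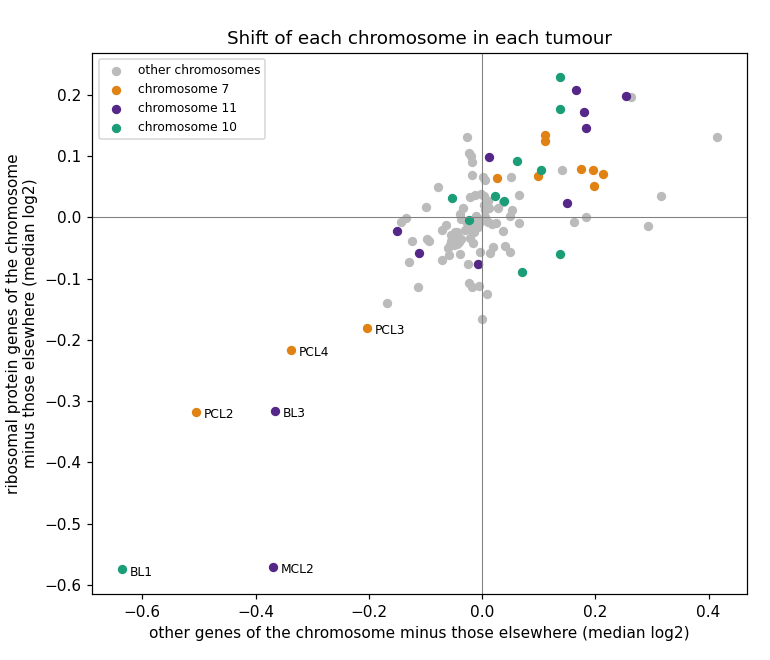
For each chromosome with at least 3 core genes in each tumour, the median log2 shift of its core genes against those elsewhere (vertical axis) and of its other genes with signals above the median (horizontal axis), 121 points. The named points at the lower left are chromosome 7 in PCL2 to PCL4, chromosome 11 in MCL2 and BL3 and chromosome 10 in BL1.

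The probes of a gene mostly read alike. Of 55 genes with several probes, the differences between types varied by less than 0.5 between probes for 48, and the median of a gene's largest range was 0.22. Of the 179 member probes, 1 was called in the F test over probes, against 6.98% of all probes. Rps24 had the largest range, 1.51. It is spliced at its end into variants, and its probes lie on mm9 chromosome 14. The 30 bases of each that are printed, with AATAAA in capitals, are the first 30 of the variant 1 probe (aligned between 25312695 and 25315015, across a splice junction) and of the probe just upstream (25311190 to 25312666), and bases 28 to 57 of the brightest probe (25315021 to 25315080).
Rps24 variant 1: aatgttggtgctggcaaaaagtgagtggag
Rps24 upstream: tggccattatgagaagaaaaagacctcccg
Rps24 brightest: tctgagaggacaAATAAActaaaaagcttc
The variant 1 probe had log2 signals of 3.51, 2.40, 2.98 and 2.33 in PCL, 4.24, 4.11 and 4.34 in MCL, and 1.87, 2.70, 2.94 and 3.89 in BL. All MCL tumours lay above all others, with BL4 nearest. The differences of -1.42 ± 0.44 (SE) between PCL and MCL and of 1.38 between MCL and BL did not pass (limma over all probes, adjusted p = 0.0839 and 0.118). The PCL to MCL difference of the other 3 Rps24 probes was -0.22, 0.05 and 0.08. With array quality weights the variant 1 probe was called, at -1.72 between PCL and MCL (adjusted p = 0.00815). Without PCL1 it differed by -1.66 between PCL and MCL (adjusted p = 0.0431), and without BL4 the differences were -1.42 (adjusted p = 0.05) and 1.72 (adjusted p = 0.0408). A distal probe of Rpl22, whose protein binds RNA outside the ribosome too, differed by -0.77 between PCL and MCL and by 0.94 between MCL and BL (adjusted p = 0.196 and 0.164), and the brightest Rpl22 probe by 0.00 and 0.23. Both probes were singled out after their values were seen.

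**Figure D5:**
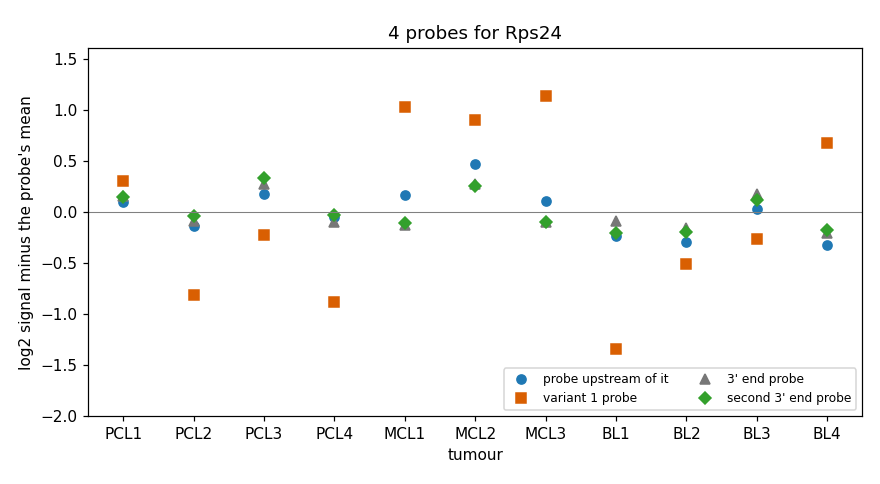
Log2 signal of 4 Rps24 probes minus each probe's mean (vertical axis) in each tumour (horizontal axis). The variant 1 probe is highest in the 3 MCL tumours, where its signals were 4.11 to 4.34, while the other 3 probes spread less over the tumours.

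Related gene groups were read in the same fit. Of 21 other TOP messenger RNAs of translation, 0 were called in limma's fit (8.35% of all genes were in the F test), with median differences of 0.14 between PCL and MCL, 0.33 between PCL and BL and 0.19 between MCL and BL. An unadjusted p under 0.05 was found for 0, 8 and 3 of them, which is 0%, 38.1% and 14.3%, against 24.3%, 17.5% and 18.4% of all genes. Among them, Npm1, a nucleolar protein of ribosome assembly, differed by 0.47 between PCL and BL (adjusted p = 0.138), and the elongation factor gene Eef1a1 by 0.36 (adjusted p = 0.25). Of 20 ribosome assembly factors and chaperones, 1 was called in the F test (5%, against 8.35% of all genes): Tsr2, the chaperone of Rps26 (adjusted p = 0.0378). Its signals were -0.98, -0.22, -0.52 and -0.79 in PCL, -0.93, -0.39 and -0.78 in MCL, and -1.94, -1.70, -1.22 and -1.60 in BL. BL lay below all other tumours, by 0.99 against PCL (adjusted p = 0.0756) and 0.92 against MCL (adjusted p = 0.0531). Of 75 mitochondrial ribosomal protein genes, which encode a separate ribosome, 1 was called in the F test, against 8.35% of all genes. This was Mrpl51, which fell by 1.33 in PCL relative to BL (adjusted p = 0.0335), where 0.653% of all genes were called. Of the 75, 53 (70.7%) had a higher mean in PCL than in MCL, against 48.1% of all genes, with a median difference of 0.15. In MCL against BL, 55 of the 75 had a lower mean in MCL, with a median difference of -0.19 against 0.06 over all genes. In PCL against BL, 57.3% had a higher mean in PCL, against 58.7% of all genes.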

How the data were processed

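Members and gene lists were chosen with earlier results of these data known. The scanner files that the authors deposited hold spot intensity from Agilent Feature Extraction 10.7.3.1 (protocol GE1_107_Sep09), per the file headers, with detrending within the array and no normalization between arrays. Between 21.5% and 29.2% of an array's spots hold a substitute value for signals not above background. The raw mean and background intensities, as deposited, served the normexp alternative (offset 50). The log2 value table that the authors deposited served as another, and its making is not given in the sources here.

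Outlier spots (0.281% to 0.381%) were left out, spots of a probe were averaged, and each log2 processed signal was reduced by the 75th percentile of its array (1067 to 1632 intensity units). Probes well above background on at least 3 of 11 arrays were kept (25296), and the brightest stood for its gene. limma 3.58.1 in R 4.3.3 fitted a mean per type over all arrays (8 residual degrees of freedom, prior 2.01), and p-values were adjusted over 20204 genes. The script was tested on simulated data. No 2 arrays were duplicates (highest correlation 0.979).

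Genes were named by rule: members called, the 5 highest and 5 lowest differences, the 5 with most and with least spread, members with set roles, non-core matches, members with discordant probes, and called members of other lists. Genes of a chromosome, members without overlap and other list genes were named after their values were seen. Some members are not reported here by name. Sequences come from the scanner files and RefSeq (GRCm38.p6, used for no mm9 coordinate). Alternatives were the background correction, scaling, probe filter and choice, outlier spots, array weights, the samples fitted, a replicate block and leaving out each array.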

Additional observations from a re-analysis of the deposited data

Results flagged for a closer look

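In 6 of 82 gene and type combinations tested with 4 tumours, 1 tumour stood apart from the other 3 beyond Dixon's 95% limit, where chance gives about 1 in 20. BL3 did so on the high side for the core median (0.12 against -0.15 in the nearest tumour), for Rps6 (7.65 against 7.40) and for Rpl27a (7.89 against 7.59). PCL3 was high for Rpl23a (7.57 against 7.39). PCL1 was low for Rps19bp1 (2.79 against 3.36). BL2 was high for Rps4y2 (-0.32 against -5.61), which was not well above background in BL3.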

How the results depend on the processing

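The count of members called, 1 in the F test, 1 in PCL against MCL, 0 in PCL against BL and 1 in MCL against BL, became 0 in the first, second and last with normexp correction and with the replicate number as a block. It was 0 in the F test and in MCL against BL with arrays centred on the median, 0 in PCL against MCL without a probe filter, and 0 in PCL against MCL and in MCL against BL when only the groups compared were fitted. With array quality weights it was 3, 2 and 1 in the first 3. Leaving out each array gave 0 to 1 in the F test and in PCL against MCL, 0 in PCL against BL and 1 in MCL against BL. Replicate numbers are array positions and do not pair the tumours: the deviations of same-numbered tumours correlated at -0.046 to 0.172 over 10 pairs. Under the alternatives, 2607 values of named genes and 2 single probes were read, and 6 gained a call. Only the 2 Rps21 differences were called at first, so only they could lose a call or reverse. The PCL to MCL call was lost in 9 of 22 settings and the MCL to BL call in 4 of 22, and neither changed sign. Differences that were not called did change sign, for example Rpl13a between PCL and BL in 9 of 22 settings and Rpl7l1 between PCL and MCL in 8 of 22. The members' median difference was 0.02 between PCL and BL with quantile normalization, and -0.08 and -0.12 between PCL and BL and between MCL and BL with arrays centred on the median. Leaving out 1 array moved it from -0.03 to 0.15 between PCL and MCL, from 0.14 to 0.25 between PCL and BL and from 0.04 to 0.21 between MCL and BL. The signal of Rps4y2, near background, is limited by the array's detection.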
